A study of Rattus norvegicus with 6 samples.

Results

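Podocytes are the epithelial cells that wrap the capillaries of the kidney glomerulus, and 8 genes that mark them were followed here: Nphs1, Podxl, Synpo, Wt1, Plce1, Ptpro, Cd2ap and Magi2. The genes were picked by symbol, and every non-control probe whose accession maps to one of them was taken. This gave 14 probes, of 61537 non-control probes on the array, and all 8 genes were among the 12118 genes tested. The samples were pieces of renal cortex from 6 male Sprague-Dawley (Crl:CD(SD)) rats, bought at 5 weeks of age and kept on the same basal diet. In the treated group, 3 rats received sulfone bis(p-chlorophenyl), an industrial sulfone with a pair of chlorinated rings, at 250 mg/kg/day for 4 weeks. In the vehicle group, 3 rats received corn oil for 4 weeks. Each rat's RNA had its own Agilent array, read in 1 colour. Per the design text, the 3 samples of a group are biological replicates.

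Neighbouring podocytes interlock by foot processes, and the gaps between them are closed by the slit diaphragm, a cell junction built around nephrin. Adaptor proteins tie this junction to the actin of the foot process, while a charged glycoprotein coat on the apical membrane keeps the processes apart. Podocytes stand on a basement membrane that they share with the glomerular endothelium, and loss of podocytes or of their junction lets protein into the urine. Glomeruli are a small share of cortical tissue, so in whole cortex the level of a podocyte transcript follows both the number of podocytes in the piece and the RNA each one holds. Fewer podocytes and less of the RNA per podocyte cannot be told apart in these samples.

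Values are log2 of the background-subtracted spot signal minus the 75th percentile of the same array, called the scaled signal here. A value of 0 therefore means a signal equal to that percentile, and levels of different probes are not comparable. All 14 probes were well above background on all 6 arrays. That included the probes of Nphs1, Ptpro and Wt1, taken here as the more podocyte-restricted of the 8, although parietal cells also make Wt1. The 8 proximal tubule markers, among them Lrp2 and Aqp1, were also well above background on every array at their brightest probes. Between 66.1% and 68.2% of non-control probes on an array were well above background. The arrays lay on 2 slides, and slide 1 held treated 1 and vehicle 1 to 3, whereas slide 2 held treated 2 and treated 3 only. Treated 3 stood apart as the highest, and vehicle 3 as the lowest, in transcripts of hepatocytes, a cell type foreign to kidney. The 6 hepatocyte markers summed to 28.3, 26.5 and 72.2 times the 75th percentile in treated 1 to 3, against 39.8, 20.6 and 11.4 in vehicle 1 to 3. Such a sum follows its brightest probes. The median over the same markers, given below, put treated 1 under treated 2.

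Promoter sequence from RefSeq (GRCr8; 250 bases before to 50 after the gene start) was found for 7 of the 8 genes, all but Plce1. Of these, 3 are printed, in 5′ to 3′ direction of the gene: Nphs1 as the defining podocyte gene, Podxl because its treated arrays were the most widely spread, and Magi2 because it alone held a WT1-type match. Nphs1 lies on the plus strand at chr1:94848011-94848310, Podxl on the minus strand at chr4:61149082-61149381 and Magi2 on the minus strand at chr4:16762086-16762385. Capitals mark matches on either strand.
Nphs1: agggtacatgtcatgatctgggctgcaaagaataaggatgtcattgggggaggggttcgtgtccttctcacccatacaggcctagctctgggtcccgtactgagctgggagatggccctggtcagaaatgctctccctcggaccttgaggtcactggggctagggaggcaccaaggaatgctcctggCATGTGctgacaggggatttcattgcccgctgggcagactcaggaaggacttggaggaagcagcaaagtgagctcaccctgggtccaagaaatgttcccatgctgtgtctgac
Podxl: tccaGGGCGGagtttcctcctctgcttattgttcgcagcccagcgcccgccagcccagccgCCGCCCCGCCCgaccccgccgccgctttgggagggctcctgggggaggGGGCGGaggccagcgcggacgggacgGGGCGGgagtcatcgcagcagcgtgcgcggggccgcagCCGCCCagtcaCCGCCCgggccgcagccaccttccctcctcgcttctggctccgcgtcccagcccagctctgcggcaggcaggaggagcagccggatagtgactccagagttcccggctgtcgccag
Magi2: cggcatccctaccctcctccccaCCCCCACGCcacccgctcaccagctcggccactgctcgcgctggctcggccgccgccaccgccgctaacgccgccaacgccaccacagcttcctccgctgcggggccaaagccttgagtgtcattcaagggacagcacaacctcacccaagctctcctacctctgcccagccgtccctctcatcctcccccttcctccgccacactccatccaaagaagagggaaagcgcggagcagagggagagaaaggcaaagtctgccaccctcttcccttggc
The capitals in Nphs1 are an E-box (CANNTG, the core bound by bHLH factors), a motif that stood in 72.1% of 33469 promoters of this length. Podxl held 7 GC boxes (GGGCGG), a motif present in 33.1% of promoters, and 1 pair of them overlapped by 1 base. Synpo and Ptpro were the other members with a GC box. Magi2 held 1 match to the WT1-type letters GNGTGGGNG, present in 12.9% of promoters. The motifs TAATTA and TAAACA, of the LMX1B and FOX types, were in 5.36% and 13.7% of promoters and in 0 of the 7 windows. These matches describe the letters only.

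The comparison asked whether 4 weeks of dosing altered the podocyte transcripts of the cortex. None of the 8 genes passed the test: 0 of 8 had a limma adjusted p under 0.05 over all 40643 tested probes, and 0 of 8 had an unadjusted p under 0.05. Across the array 3 probes (0.00738%) passed the adjusted threshold, and 21.4% of tested genes had an unadjusted p under 0.05. The median log2 fold change of the 8 genes was 0.16, against -0.01 over all tested genes. Of the 8, 6 had a positive and 2 a negative difference. For 1 of 8 genes, Ptpro, the groups did not overlap, against 30.7% of tested genes whose groups did not overlap in either direction.

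**Figure D1:**
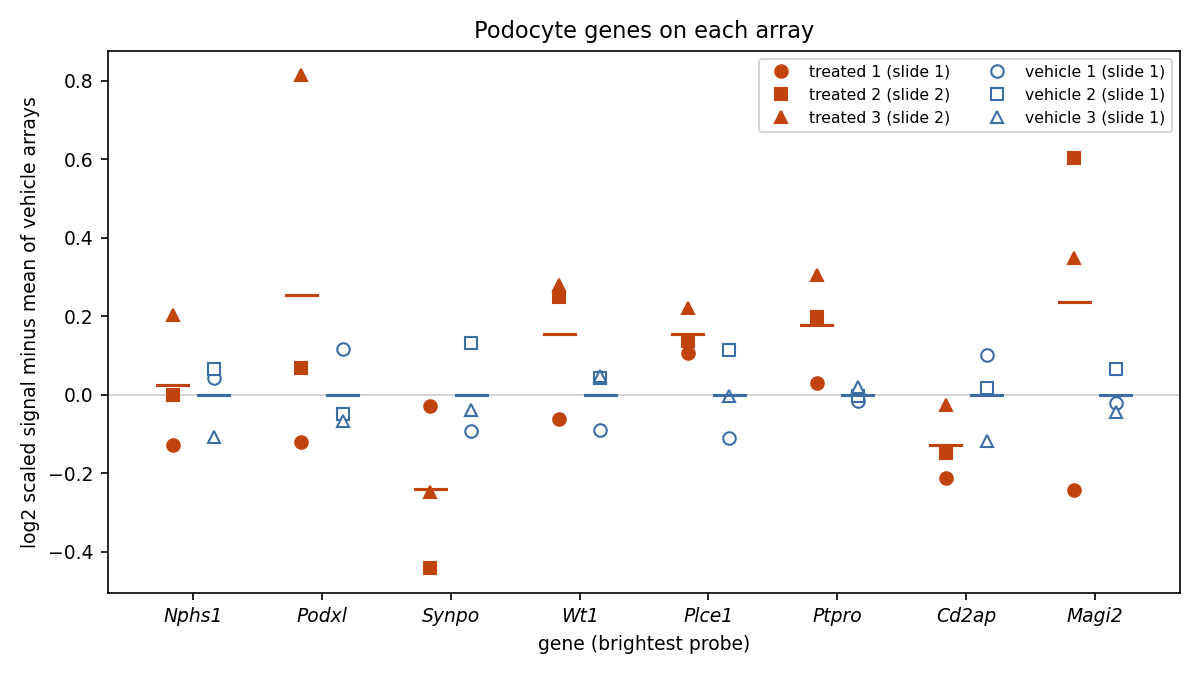
Scaled log2 signal of each podocyte gene on each array, with the mean of the vehicle arrays subtracted. Filled points are treated arrays, open points are vehicle arrays and short lines are group means. Treated 3 is the highest point for Nphs1, Podxl, Wt1, Plce1 and Ptpro, treated 2 for Magi2, and vehicle arrays for Synpo and Cd2ap.

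The slit diaphragm comes first. Nphs1 encodes nephrin, whose extracellular domains form the diaphragm between foot processes. Its brighter probe read 0.88, 1.01 and 1.21 in treated 1 to 3, against 1.05, 1.07 and 0.90 in vehicle 1 to 3. The groups overlapped, with treated 3 highest and treated 1 lowest of all arrays. The means were 1.03 ± 0.17 in treated and 1.01 ± 0.09 in vehicle cortex (SD, n = 3 each). The log2 fold change was 0.02 (SE 0.11, limma adjusted p = 0.914), with a 95% interval from -0.25 to 0.29. The second Nphs1 probe read -0.13, 0.21 and 0.52 in treated and -0.04, -0.03 and 0.03 in vehicle arrays. Here treated 2 and treated 3 lay above all vehicle arrays and treated 1 below them, for a log2 fold change of 0.21 (limma adjusted p = 0.493).

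Cd2ap encodes an adaptor that binds the tail of nephrin and actin regulators, and it is also made in many other cells. It read 0.10, 0.17 and 0.29 in treated 1 to 3, against 0.42, 0.33 and 0.20 in vehicle 1 to 3. Only vehicle 3 lay within the treated range. Cd2ap had a log2 difference of -0.13 (SE 0.09, limma adjusted p = 0.465), with an interval from -0.36 to 0.10. Magi2 encodes a scaffold protein that also gathers at the slit diaphragm and at synapses. Its single probe was dim and read -5.23, -4.38 and -4.64 in treated arrays, against -5.01, -4.92 and -5.03 in vehicle arrays. Treated 2 and treated 3 were above every vehicle array, and treated 1 was below them. The fold change was 0.24 on the log2 scale (SE 0.22, limma adjusted p = 0.556), with an interval from -0.29 to 0.76.

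On the apical membrane, Podxl encodes podocalyxin, the negatively charged sialomucin of the foot process coat, which vascular endothelium carries as well. Podxl read 4.03, 4.21 and 4.96 in treated 1 to 3, against 4.26, 4.10 and 4.08 in vehicle 1 to 3. Treated 3 exceeded the highest other array by 0.70, while treated 1 was the lowest array and treated 2 lay within the vehicle range. The group means were 4.40 ± 0.49 in treated and 4.15 ± 0.10 in vehicle cortex (SD, n = 3 each). Its log2 difference of 0.25 (SE 0.25, limma adjusted p = 0.578, interval -0.35 to 0.85) rested on treated 3, without which it was -0.03. An excess of over 0.5 in treated 3 over all other arrays was seen in 1.66% of tested genes.

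Ptpro encodes a receptor tyrosine phosphatase of the apical podocyte membrane, known as GLEPP1. The brightest probe read 2.70, 2.87 and 2.98 in treated 1 to 3, against 2.65, 2.67 and 2.69 in vehicle 1 to 3. Every treated array thus lay above every vehicle array, treated 1 by the smallest margin. Ptpro had a log2 difference of 0.18 (SE 0.09, limma adjusted p = 0.319), with an interval from -0.05 to 0.40, and this was the lowest adjusted p of the 14 probes. Of its other probes, the brighter read 1.46, 1.61 and 1.68 in treated and 1.48, 1.46 and 1.48 in vehicle arrays. The dim one read -2.82, -2.23 and -2.04 in treated and -2.43, -2.44 and -2.51 in vehicle arrays. In both of these treated 1 overlapped or undercut the vehicle arrays, and treated 2 and treated 3 were above them.

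Synpo encodes synaptopodin, an actin-organising protein of foot processes and of dendritic spines. Synpo ran the other way to Ptpro, at -2.16, -2.57 and -2.37 in treated 1 to 3, against -2.22, -1.99 and -2.17 in vehicle 1 to 3. Treated 2 and treated 3 were the lowest arrays, and treated 1 lay within the vehicle range. The log2 fold change was -0.24 (SE 0.13, limma adjusted p = 0.336), with an interval from -0.55 to 0.08. Plce1 encodes phospholipase C epsilon, a signalling enzyme whose loss causes a childhood nephrotic syndrome in humans. It read -0.72, -0.69 and -0.60 in treated arrays, against -0.93, -0.71 and -0.83 in vehicle arrays. Only vehicle 2 reached the treated range, and the log2 fold change was 0.16 (SE 0.09, limma adjusted p = 0.353, interval -0.06 to 0.37).

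Wt1 encodes the zinc-finger transcription factor that adult podocytes need to keep their identity, and parietal cells of the glomerular capsule also make it. The brightest of 4 probes read -0.11, 0.20 and 0.23 in treated 1 to 3, against -0.14, -0.01 and -0.005 in vehicle 1 to 3. Treated 2 and treated 3 were above all vehicle arrays and treated 1 lay within their range. The log2 fold change was 0.16 (SE 0.12, limma adjusted p = 0.471), with an interval from -0.13 to 0.44. The 3 dimmer Wt1 probes had log2 fold changes of 0.29, 0.25 and 0.34, with limma adjusted p-values of 0.43, 0.419 and 0.372. In each of them treated 2 and treated 3 again exceeded all vehicle arrays and treated 1 did not.

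**Figure D2:**
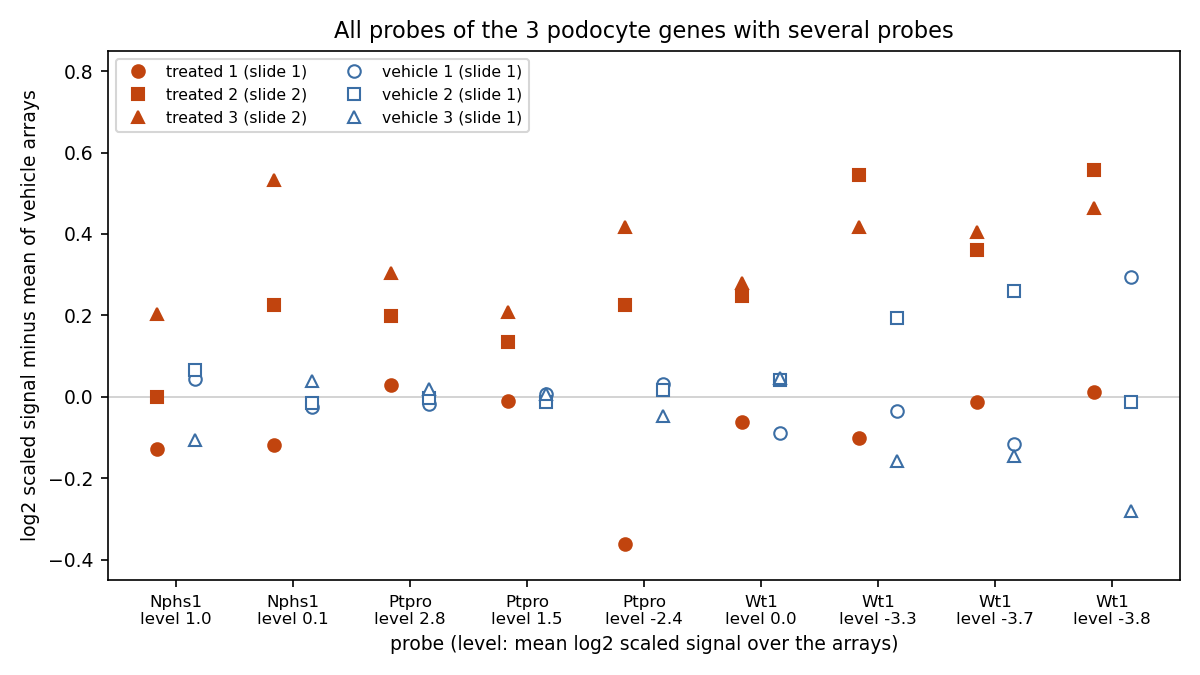
Every probe of Nphs1, Ptpro and Wt1 on each array, as scaled log2 signal minus the mean of the vehicle arrays. Below each probe stands its mean level over the 6 arrays. Treated 3 lies above all vehicle arrays for every probe shown, and treated 1 lies above all of them only for the brightest Ptpro probe.

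This split within the treated group recurred over the 14 probes. In 9 of the 14, treated 2 and treated 3 were both above every vehicle array and treated 1 was not, a pattern held by 12.6% of tested probes. Every Wt1 probe was among these 9. At the brightest probe of each gene, only Wt1, Plce1 and Magi2 had this pattern. Treated 3 exceeded treated 1 in 13 of the 14 probes, against 51.4% of tested probes. These patterns were picked after the values were seen, and probes of 1 gene measure the same transcript, so they are given without a test. The split coincides with the slides. On slide 1 alone, where treated 1 was set against vehicle 1 to 3, the median log2 fold change of the 8 genes was -0.09. It was -0.13 for Nphs1, -0.12 for Podxl, -0.06 for Wt1 and -0.24 for Magi2 there, each opposite in sign to the value over all arrays. Ptpro had 0.03 and Plce1 0.11, while Synpo had -0.03 and Cd2ap -0.21. The adjusted p-values of the 8 genes on slide 1 (limma) ran from 0.378 to 0.933. With 1 treated array there, the spread comes from the vehicle arrays, and treated 1 is assumed to vary like them.

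**Figure D3:**
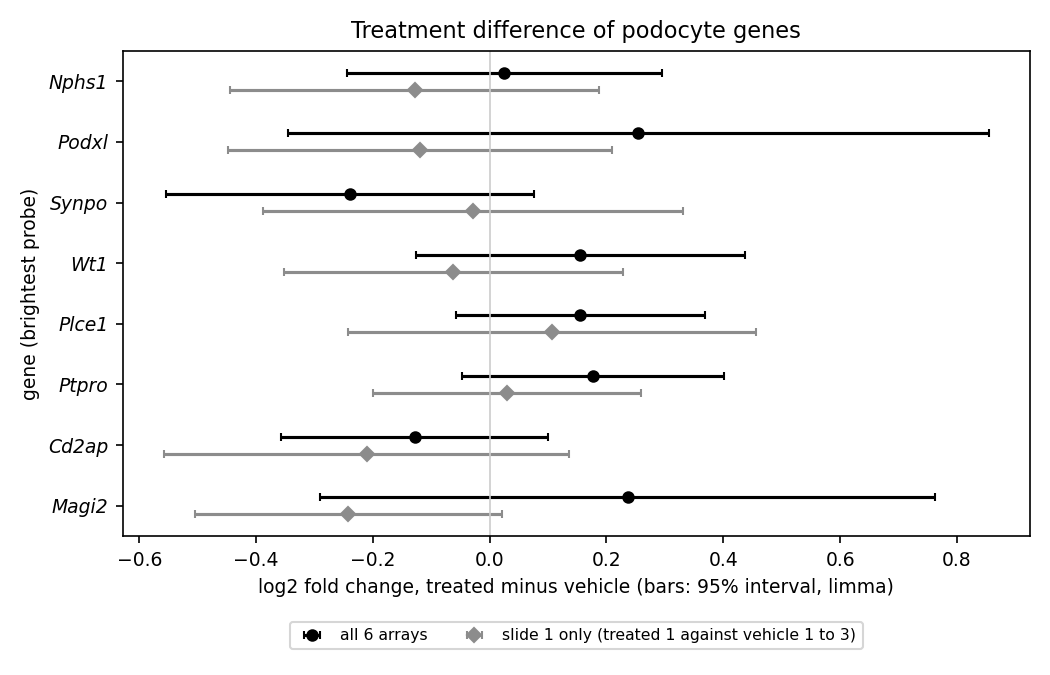
Log2 fold change of each podocyte gene, treated minus vehicle, with 95% intervals from limma. Black points use all 6 arrays and grey points slide 1 only, where 1 treated array was compared with 3 vehicle arrays and all spread comes from the vehicle arrays. The grey point is on the other side of 0 from the black one for Nphs1, Podxl, Wt1 and Magi2.

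Without treated 1, every treated array came from slide 2 and every vehicle array from slide 1, so that slide and treatment cannot be told apart. In that comparison 0 of the 8 genes passed the adjusted threshold, against 9.6% of tested genes, and 4 of 8 had an unadjusted p under 0.05, against 32.2% of tested genes. Those 4 were Magi2 (log2 fold change 0.48, limma adjusted p = 0.0526), Ptpro (0.25, limma adjusted p = 0.0806), Wt1 (0.26, limma adjusted p = 0.0897) and Synpo (-0.34, limma adjusted p = 0.106). Synpo thus differed in direction from the other 3 in the same arrays.

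Other cell types of the cortex were read on the same arrays through marker lists. Each list is given as the median over its genes of the scaled log2 signal minus the gene's mean over the 6 arrays. The 8 podocyte genes had -0.14, 0.02 and 0.20 in treated 1 to 3, against -0.06, 0.0005 and -0.07 in vehicle 1 to 3. Their summed signal was 27.5, 31.0 and 44.6 times the 75th percentile in treated 1 to 3 and 30.6, 28.7 and 28.2 in vehicle 1 to 3. Podxl made up much of the sum on every array, so the sum largely follows that gene.

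The glomerular endothelium list, whose cells line the same capillaries, had medians of -0.04, 0.16 and 0.15 in treated and -0.05, 0.01 and -0.14 in vehicle arrays. Of its 8 genes, 3 had an unadjusted p under 0.05, against 21.4% of all tested genes, and 0 passed the adjusted threshold (limma). Ehd3, an endocytic trafficking gene of glomerular endothelium, read -2.62, -1.99 and -2.13 in treated arrays, against -3.29, -3.67 and -3.23 in vehicle arrays. The groups were separate, and its log2 difference of 1.15 (SE 0.20, limma adjusted p = 0.0957) was 0.78 on slide 1. Flt1, a receptor for VEGF, had 0.45 (SE 0.13, limma adjusted p = 0.162) at its brightest probe, and 0.20 on slide 1. Its other 2 probes overlapped between groups. In this list 6 of 8 genes had a positive log2 fold change, and Kdr (-0.07) and Cdh5 (-0.09) a negative one. The median log2 fold change of the list was 0.15, and 0.04 on slide 1.

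The mesangium list, of the contractile cells between the capillaries, had -0.004, 0.05 and 0.05 in treated and -0.08, -0.15 and 0.08 in vehicle arrays. Its gene Des, encoding desmin, differed by 0.36 on the log2 scale (SE 0.13, limma adjusted p = 0.215), and by 0.19 on slide 1. Of the 6 tested mesangium genes, 4 had a positive log2 fold change, and the median of the list was 0.05. Parietal epithelium had 0.03, -0.12 and -0.12 in treated and 0.18, 0.13 and 0.03 in vehicle arrays. Proximal tubule, which is not glomerular, had -0.22, 0.16 and 0.14 in treated and 0.06, -0.03 and -0.05 in vehicle arrays. The podocyte and proximal tubule lists were thus both lowest in treated 1. The podocyte list was highest in treated 3, while its treated 2 value of 0.02 was close to the 0.0005 of vehicle 2. The proximal tubule list was highest in treated 2, followed by treated 3. Markers of the straight proximal tubule, a deeper segment, had 1.61, 0.40 and 0.53 in treated and -2.80, -0.34 and 0.59 in vehicle arrays, with the lowest level in vehicle 1. Hepatocyte markers had -0.76, -0.01 and 1.88 in treated and 0.73, 0.04 and -2.25 in vehicle arrays. None of the genes in any marker list passed the adjusted threshold (limma). The part of slide, tissue makeup and hepatocyte transcripts in the podocyte values was not tested.

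**Figure D4:**
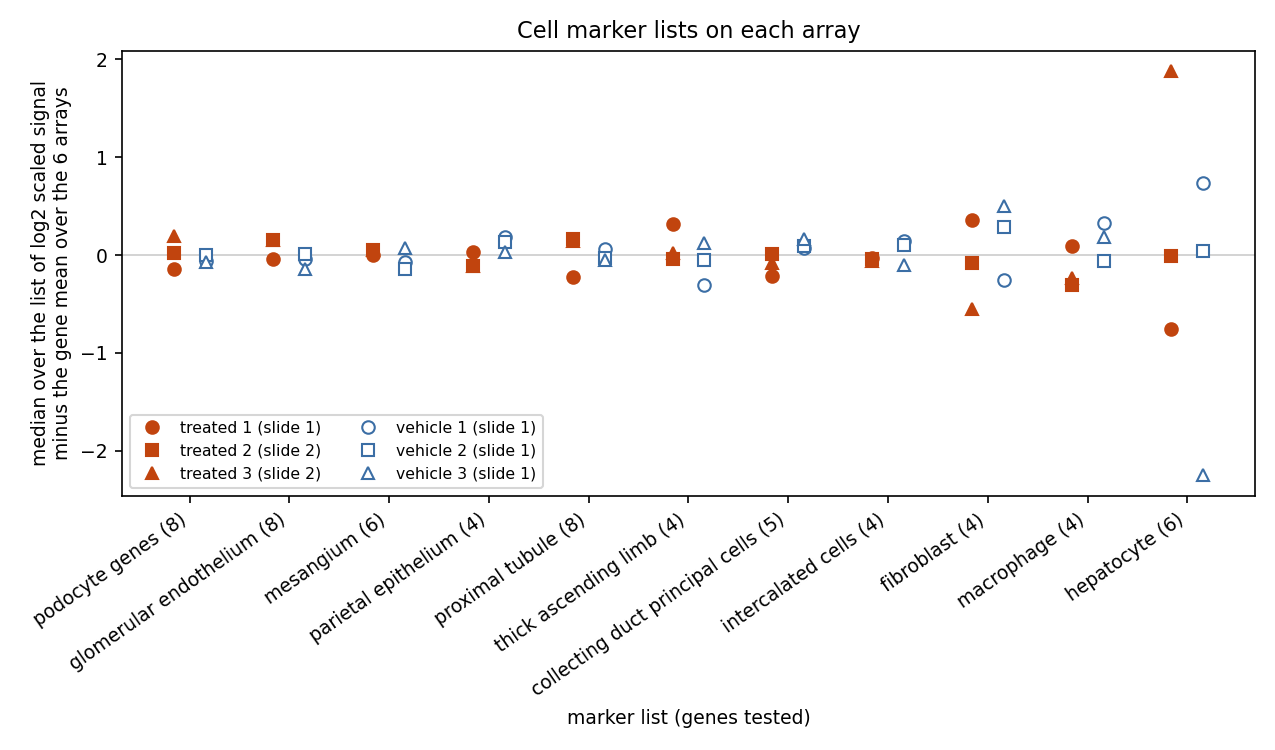
Median of each cell marker list on each array, as scaled log2 signal after centring every gene over the 6 arrays, with the number of genes tested in brackets. The podocyte genes range from -0.14 to 0.20, a narrow band beside the hepatocyte markers, which range from -2.25 to 1.88.

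A wider list of 57 genes with roles in podocytes, the 8 included, placed these values among their partners. Genes were listed by role, and the part of other cortex cells in their signal was not tested. Of the 57, 49 were on the array by accession and 47 were tested. None of the 47 passed the adjusted threshold (limma), 7 were higher and 2 lower at an unadjusted p under 0.05. Over all tested genes 10.1% were higher and 11.3% lower at that level. The groups did not overlap for 13 of the 47, 9 higher and 4 lower, against 30.7% of tested genes in either direction. The median log2 fold change was 0.11 over all arrays, 0.01 on slide 1 and -0.01 over all tested genes. Of 32 listed genes with several tested probes, 9 had probes of opposite sign.

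**Figure D5:**
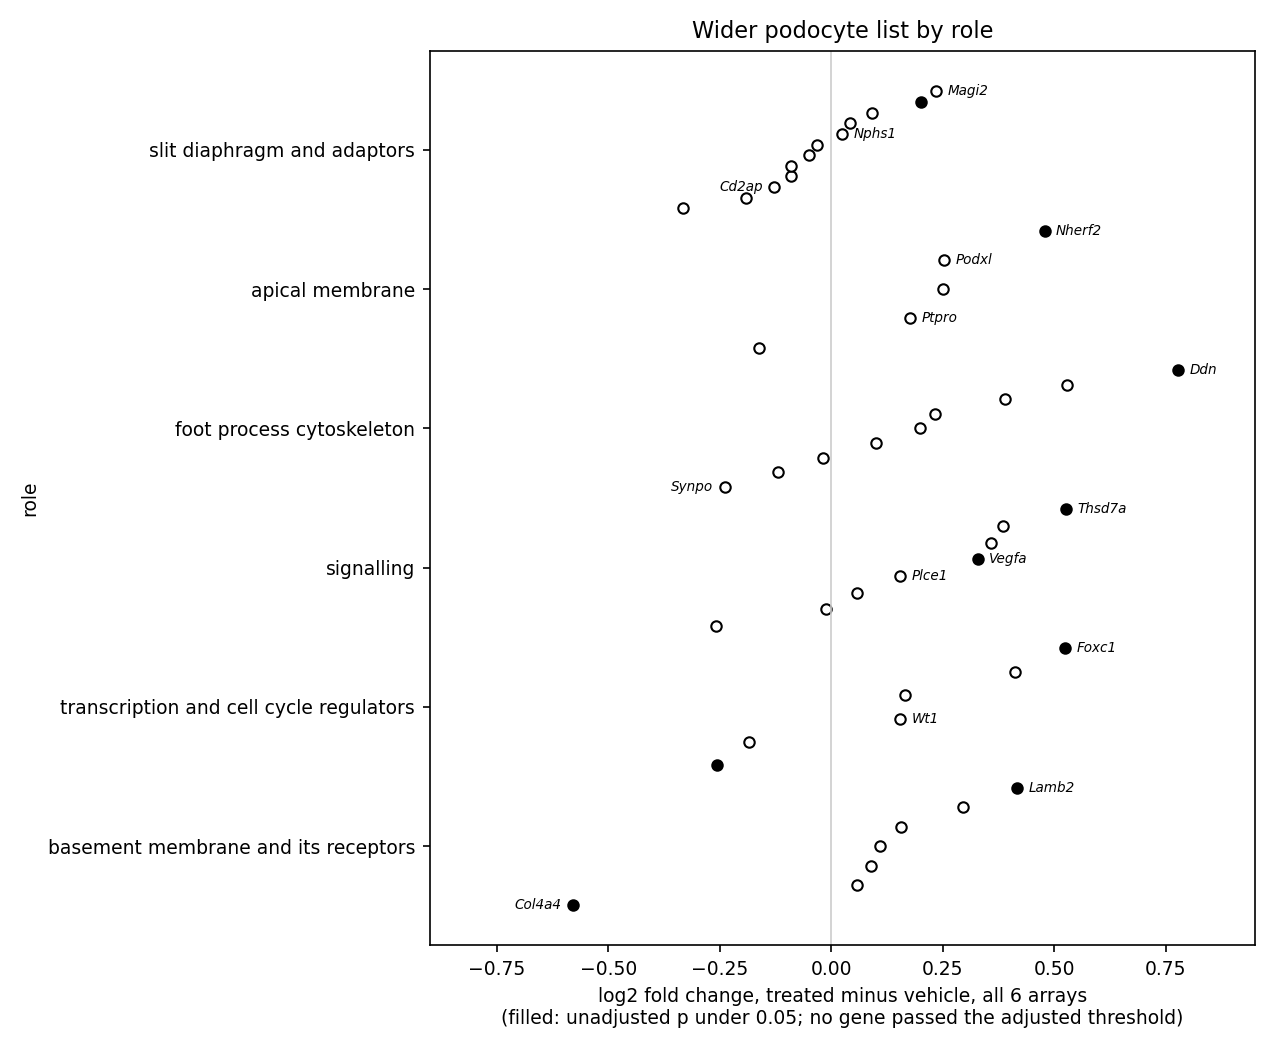
Log2 fold change, treated minus vehicle, of the 47 tested genes of the wider podocyte list, by role. Each point is 1 gene at its brightest probe, filled where the unadjusted p was under 0.05. Labels name the 8 followed genes and the filled ones described in the text, and 7 filled points lie right of 0 and 2 left of it.

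The 12 tested slit diaphragm genes and adaptors, Nphs1, Cd2ap and Magi2 among them, had a median log2 fold change of -0.04.

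For the apical membrane 1 of 5 genes had an unadjusted p under 0.05, against 21.4% of all tested genes, and the median was 0.25 (0.03 on slide 1). Nherf2 encodes a scaffold that links podocalyxin to ezrin and actin. It read -0.84, -0.37 and -0.34 in treated 1 to 3, against -0.99975, -1.02 and -0.97 in vehicle 1 to 3. All treated arrays were higher, and the log2 fold change was 0.48 (SE 0.15, limma adjusted p = 0.174), and 0.16 on slide 1. Of the 5 genes only Ezr, which encodes ezrin, had a negative log2 fold change. It was -0.16 (SE 0.09, limma adjusted p = 0.335), and -0.29 on slide 1, and all treated arrays were lower at both Ezr probes. The foot process cytoskeleton list had a median of 0.20 (0.008 on slide 1), and 1 of its 9 genes had an unadjusted p under 0.05, against the same 21.4%. Ddn encodes dendrin, a proline-rich protein of the foot process that can move to the nucleus. Ddn read -2.72, -2.33 and -1.96 in treated arrays, against -3.18, -3.07 and -3.10 in vehicle arrays. Each treated array lay above the vehicle range, and the log2 fold change was 0.78 (SE 0.19, limma adjusted p = 0.139), and 0.39 on slide 1.

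Signalling and surface genes had a median of 0.24 (0.09 on slide 1), and 2 of 8 had an unadjusted p under 0.05, against 21.4% of all tested genes. Thsd7a encodes a podocyte surface protein that is a target of autoantibodies in human membranous nephropathy. It read -0.06, 0.10 and 0.11 in treated 1 to 3, against -0.53, -0.44 and -0.45 in vehicle 1 to 3. Its log2 fold change was 0.53 (SE 0.08, limma adjusted p = 0.0886), 0.42 on slide 1, and its other probe had 0.41 (limma adjusted p = 0.112). Both Thsd7a probes had separate groups, and treated 1 stood with the other treated arrays. Vegfa, the growth factor by which podocytes maintain the glomerular endothelium and which tubules also make, had 4.36, 4.58 and 4.83 in treated and 4.33, 4.24 and 4.21 in vehicle arrays. For Vegfa the log2 fold change was 0.33 (SE 0.13, limma adjusted p = 0.234), and 0.10 on slide 1.

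The 6 tested transcription and cell cycle regulators, Wt1 among them, had a median of 0.16, which turned to -0.03 on slide 1. Foxc1, a forkhead factor of podocyte development, read 1.24, 0.77 and 0.73 in treated 1 to 3, against 0.26, 0.37 and 0.53 in vehicle 1 to 3. Here treated 1 was the highest array, and the log2 difference of 0.52 (SE 0.16, limma adjusted p = 0.176) was 0.85 on slide 1.

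In the basement membrane list, 1 of 7 genes was higher and 1 lower at an unadjusted p under 0.05, against 10.1% higher and 11.3% lower over all tested genes. The median of the list was 0.11, and 0.01 on slide 1. Col4a4 encodes a type IV collagen chain of the glomerular basement membrane. It read 2.31, 2.64 and 2.07 in treated 1 to 3, against 2.95, 2.88 and 2.93 in vehicle 1 to 3. All treated arrays were lower for both Col4a4 probes, with log2 fold changes of -0.58 (SE 0.15, limma adjusted p = 0.144) and -0.49 (SE 0.13, limma adjusted p = 0.145). The brighter probe had -0.61 on slide 1. Lamb2, the laminin chain of the same membrane, read 1.36, 1.87 and 1.74 in treated arrays, against 1.28, 1.16 and 1.28 in vehicle arrays. Its log2 fold change was 0.42 (SE 0.14, limma adjusted p = 0.201), and 0.12 on slide 1. Without treated 1, 5 of the 47 genes passed the adjusted threshold (limma): Thsd7a, Ddn, Nherf2, Lamb2 and Lama5, which encodes another laminin chain. In the same comparison 9.6% of tested genes passed, and slide and treatment cannot be told apart there.

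The genes whose profile over the 6 arrays lay closest to that of Nphs1 were Atp6v1a, St6galnac3, Pcgf3, Slc12a7 and Zkscan5. Their root mean square distances from the Nphs1 profile were 0.014, 0.026, 0.033, 0.033 and 0.034 on the log2 scale. By this measure, among 12117 genes, Cd2ap ranked 821, Ptpro 1335, Plce1 2296 and Wt1 2391. Podxl, Synpo and Magi2 ranked 7597, 7713 and 7815. This distance counts the size of the variation as well as its shape. Podxl, Synpo and Magi2 had SDs of 0.35, 0.20 and 0.31 over the 6 arrays. Like Nphs1, Podxl was lowest in treated 1 and highest in treated 3. Nphs1 varied little, with an SD of 0.12 over the 6 arrays against a median of 0.17 for tested genes.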

How the data were processed

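The authors scanned 6 1-colour Cy3 arrays and deposited Feature Extraction tables (version 10.7.1.1 per the file headers, 10.7 per the submitters' processing notes). The values used were the deposited processed signal, a background-subtracted intensity per spot, and the flags the authors' software set for signal well above background, outliers and saturation, per the file headers. The file headers name an older rat build, so no array coordinates were used.

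From the 61537 non-control probes, 11 with an outlier flag were left out, and 0 were saturated. Log2 intensity minus the array's 75th percentile was fitted for each probe in limma 3.58.1 (R 4.3.3), with moderated two-sided tests adjusted by the Benjamini-Hochberg method over 40643 probes. Tested probes had the well-above-background flag in every sample of 1 group or both. A gene was read at its brightest tested probe. Through accessions in a RefSeq table (GRCr8), 28206 probes had 1 symbol and 33331 had none. The authors' value table held ratios that matched the scaled signal, and it was fitted as an alternative. For normexp, the median signal stood in for the mean, which the tables do not hold. Precision is limited by 3 arrays a group. Tests were checked on simulated data.

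The genes and lists were chosen with earlier results of these data known. Genes named were the 8 with all probes, genes of the wider list with an adjusted p under 0.05 and the 8 others of largest change among those with an unadjusted p under 0.05, up to 2 of largest change per marker list, and the 5 nearest to Nphs1. Some genes that this rule names are not reported here. Alternatives covered background correction, centring, probe filters, slide and replicate blocks, moderation, probe averaging and leaving out each array.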

Additional observations from a re-analysis of the deposited data

How the results depend on the processing

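Across 18 alternatives, 132 of 144 values of the 8 genes kept their direction, 12 reversed and 0 passed the adjusted threshold (lowest limma adjusted p 0.0526, Magi2 without treated 1). With slide as a fixed block, and within slide 1, Nphs1 had -0.128, Podxl -0.119, Wt1 -0.0623 and Magi2 -0.242. Nphs1 also reversed with slide as a random block (-0.0426), without treated 3 (-0.0647) and without vehicle 3 (-0.0289), and Podxl without treated 3 (-0.0254). With 1 array left out, Nphs1 ranged from -0.0647 to 0.101 and Podxl from -0.0254 to 0.441, each highest without treated 1. The median of the 8 genes was -0.0908 with slide as a fixed block or within slide 1, 0.0429 with slide as a random block, and 0.03 to 0.22 when 1 array was left out. For the wider list it was 0.0112 with slide as a fixed block or within slide 1, and 0.0575 with slide as a random block. With 1 array left out the wider list had 0.06 to 0.17, and 0 to 5 of its genes passed. The 5 passed without treated 1, against 9.6% of tested genes there. The cause of these reversals was not tested. Probes passing the adjusted threshold (limma) over the whole array were 3, against 136 with normexp, 17 with median centring, 1 without the filter on dim probes, 0 with probes well above background on all arrays, 1 with slide as a fixed block, 3 with slide as a random block, 0 within slide 1 and 156 with trended robust moderation. They were 45 genes with probes averaged and 0 to 4307 with 1 array left out, the 4307 without treated 1. The groups share replicate numbers but not animals. Same-numbered arrays deviated with correlations of -0.211, 0.0142 and -0.159, and differently numbered ones with -0.103 to 0.216. With 3 arrays a group, these correlations cannot decide whether the numbers mark a shared block. With the replicate block, 0 probes and 0 of the 8 genes passed and the median stayed at 0.16. Of the 8 genes, 4 had an unadjusted p under 0.05 without treated 1, against 32.2% of tested genes. Slide and treatment cannot be told apart in that comparison. Over all arrays it was 0 of the 8 genes, against 21.4% of tested genes.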

Other observations

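Podxl was not the only podocyte gene of the wider list to stand high in treated 3. Of the 47 tested genes of that list, 25 had their highest value in treated 3. The same share over all tested genes was not computed, so this count has no background beside it. In treated 3, Myo1e exceeded its highest other array by 0.51. An excess of over 0.5 in treated 3 was seen in 1.66% of all tested genes. Cdkn1c, which encodes a cyclin-dependent kinase inhibitor of resting podocytes, was chosen after its values were seen. Its brightest probe read 2.37, 2.60 and 3.51 in treated 1 to 3, against 2.33, 2.52 and 2.39 in vehicle 1 to 3. Treated 3 exceeded the highest other array by 0.91 at that probe and by 0.70 to 0.87 at the other 4 Cdkn1c probes. The log2 fold change was 0.41 (SE 0.29, limma adjusted p = 0.451), and -0.04 on slide 1, so no difference between the groups was shown. Treated 3 was also the array with the highest hepatocyte marker sum, whose part in these values was not tested.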
